A study of Homo sapiens with 3 samples.

Results

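Peaks that PHF13 and EZH2 had in common near gene starts were examined in PANC-1, a cultured line derived from a human pancreatic ductal carcinoma, by chromatin immunoprecipitation sequencing (ChIP-seq). The members were chosen by 3 properties of the peak lists: a PHF13 peak had to share at least 1 bp with an EZH2 peak, lie at least 1 Mb from every assembly gap of 1 Mb or more, and have its summit, the position of highest coverage, within 5 kb of the start of any annotated transcript (TSS). Of 19039 PHF13 peaks, 2230 overlapped an EZH2 peak, 1250 of these lay outside gap margins, and 614 met all conditions. They were matched with 603 of the 21639 EZH2 peaks, and 11 touched more than 1 EZH2 peak. The series held 3 libraries with 1 library each: PHF13 antibody, EZH2 antibody and input chromatin. All came from wildtype PANC-1 cells fixed with the protein crosslinker EGS and with formaldehyde, and the labels name no treatment. The cells are 1 cancer line, and no replicate could be set against any difference below, so that each interval covers counting error only and describes these lists.

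PHF13 is a PHD-finger protein that reads H3K4 methylation, a mark of active and poised gene starts. EZH2 is the catalytic subunit of Polycomb repressive complex 2 (PRC2) and methylates H3K27, a mark of silenced genes. Polycomb domains in mammals typically lie over CpG islands of developmental genes, and starts that bear both marks are called bivalent or poised. A region that exists in many near-identical copies is a special case, since a sequencing read from it matches several places and an aligner reports 1 of them.

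The shared peaks fell into 2 kinds that are best seen in the sequence below their summits. The genome was searched for each 24-mer in the 100 bp at the summit, the mitochondrial genome excluded. A peak was single-copy when its median 24-mer occurred once, and multi-copy otherwise. The search covered the hg19 assembly, so copies absent from the assembly were not counted. PAPLN and ERC2 are shown as single-copy gene starts at which EZH2 had a wide peak. The windows are hg19 chr14:73705370-73705469 and chr3:56502666-56502765 on the plus strand. Capitals mark the AP-1 site TGACTCA on either strand in PAPLN and CpG dinucleotides, of which the window holds 10, in ERC2.
PAPLN: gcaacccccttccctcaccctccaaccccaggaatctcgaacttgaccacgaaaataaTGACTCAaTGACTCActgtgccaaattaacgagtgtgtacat
ERC2: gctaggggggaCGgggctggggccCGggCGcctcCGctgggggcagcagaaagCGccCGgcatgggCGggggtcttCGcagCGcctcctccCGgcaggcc

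The window of the lncRNA gene ENSG00000289901 (chr13:110076558-110076657) is shown because of its likeness to the mitochondrial genome, and was chosen after its values were seen. Capitals mark runs of 12 or more bases that also occur in the mitochondrial genome, which cover all 100 bases.
ENSG00000289901: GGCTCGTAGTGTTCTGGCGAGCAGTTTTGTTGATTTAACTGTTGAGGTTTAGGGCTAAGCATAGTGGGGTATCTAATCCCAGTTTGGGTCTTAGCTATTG

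The windows of SENP5 (chr3:196625659-196625758), PMF1 (chr1:156186359-156186458), USP17L11 (chr4:9218552-9218651) and FAM230D (chr22:18688334-18688433) are shown as multi-copy members, and capitals mark bases in a 24-mer that occurs more than once. The median 24-mer occurred 10 times for SENP5, 3 times for PMF1, 22 times for USP17L11 and 7 times for FAM230D. For PMF1, both further places of the central 24-mer were on 1 unplaced sequence of the assembly, and for SENP5 the 24-mer was held at 9 places on chromosomes 3 and 10. The 5 letters ATTCC stood 5 times in the SENP5 window, counted on both strands.
SENP5: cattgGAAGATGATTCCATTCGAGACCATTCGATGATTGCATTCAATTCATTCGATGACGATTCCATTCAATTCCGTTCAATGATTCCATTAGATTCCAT
PMF1: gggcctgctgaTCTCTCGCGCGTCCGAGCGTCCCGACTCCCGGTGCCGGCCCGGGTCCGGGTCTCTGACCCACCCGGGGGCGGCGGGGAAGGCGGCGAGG
USP17L11: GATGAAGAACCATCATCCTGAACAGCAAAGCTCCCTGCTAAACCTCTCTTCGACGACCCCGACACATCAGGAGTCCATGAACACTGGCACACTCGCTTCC
FAM230D: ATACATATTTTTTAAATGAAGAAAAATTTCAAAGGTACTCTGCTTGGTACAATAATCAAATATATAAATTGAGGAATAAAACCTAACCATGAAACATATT

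Most shared peaks near gene starts were multi-copy. Of the 614 members, 166 were single-copy (27.0%, 95% Wilson interval 23.7 to 30.7) and 448 were multi-copy. Under the same limits on gaps and gene starts, 4920 of 6272 PHF13-only peaks (78.4%) and 7134 of 8870 EZH2-only peaks (80.4%) were single-copy. The odds of a single-copy sequence were therefore lower in the members than in PHF13-only peaks (odds ratio 0.102, 95% exact interval 0.0839 to 0.123) and than in EZH2-only peaks (0.0902, 0.0744 to 0.109). They were higher than in the 636 shared peaks that lay outside gap margins but farther from a TSS, of which 92 were single-copy (14.5%; odds ratio 2.19, 1.64 to 2.94). Both proteins gave single-copy sequence at 156 members and multi-copy sequence at 434, while 24 members changed class between the summits of the 2 lists. Among multi-copy members, 281 had a median 24-mer count of 2 to 9, 167 a count of 10 or more, and 24 a count of 100 or more. The class depends on the length compared, and with 36-mers 239 of the 614 members were single-copy. A longer read can be unique where a 24-mer is not.

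**Figure D1:**
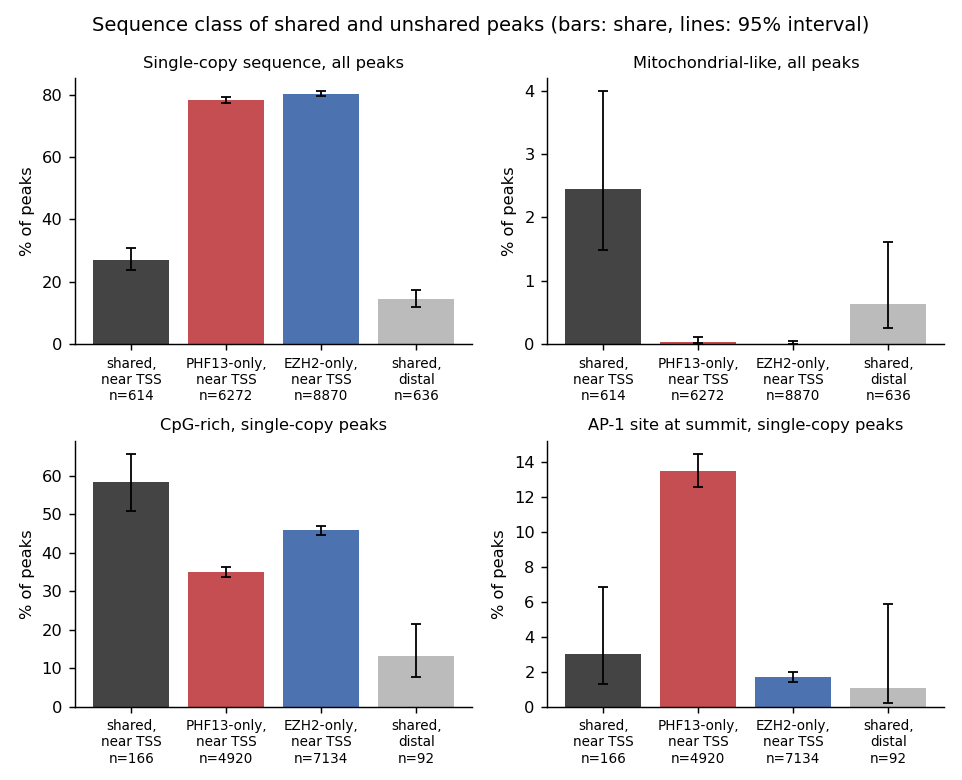
Share of peaks (%) with single-copy sequence, with likeness to the mitochondrial genome, with a CpG-rich surrounding and with an AP-1 site, in shared peaks near a TSS, PHF13-only and EZH2-only peaks near a TSS and shared distal peaks. Bars are shares, lines 95% Wilson intervals and n the number of peaks; the lower panels hold single-copy peaks only. Shared peaks near a TSS were single-copy in 27.0% against 78.4% and 80.4% of unshared peaks.

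The share of PHF13 peaks that overlapped EZH2 differed between these classes. Of 6886 PHF13 peaks near a TSS and outside gap margins, 8.92% overlapped an EZH2 peak. The share was 3.26% of 5086 single-copy peaks and 24.9% of 1800 multi-copy peaks. Overlap itself chose the members, so these shares are given as a description.

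The 3 limits of the rule cut through a continuous set of peaks. The smallest overlaps inside were 2 bp near DEF6 (chr6:35285409-35285569) and 4 bp near XXyac-YX155B6.2 (chr1:147559558-147559787). Just outside, a PHF13 peak at SLC8A1 (chr2:40739454-40739681) directly adjoined an EZH2 peak with no base in common, and 29 PHF13-only peaks near a TSS lay within 100 bp of an EZH2 peak. The summit farthest from a TSS inside lay at 4991 bp (ENSG00000256343, PHF13 fold enrichment 15.7), and the nearest one outside lay at 5020 bp (RP11-1415C14.1, 5.52). Toward a gap, the closest member lay 1003162 bp away (AL512625.1, chr9:66470841-66471361), and the closest excluded peak lay 999237 bp away (RP11-435B5.7, chr1:143534671-143534814).

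Most of the 166 single-copy members were CpG-rich. In the 500 bp at the summit, a ratio of observed to expected CpG of at least 0.6 was called CpG-rich. Of the single-copy members, 97 were CpG-rich (58.4%), against 1723 of 4920 single-copy PHF13-only peaks (35.0%; odds ratio 2.61, exact interval 1.88 to 3.63) and 3269 of 7134 single-copy EZH2-only peaks (45.8%; 1.66, 1.20 to 2.31). Among multi-copy members 98 of 448 were CpG-rich (21.9%), against 16.3% of multi-copy PHF13-only (odds ratio 1.43, 1.09 to 1.88) and 13.2% of multi-copy EZH2-only peaks (1.84, 1.40 to 2.41). Over both classes the share was 31.8% in members and 31.0% in PHF13-only peaks (odds ratio 1.04, 0.862 to 1.24). Against EZH2-only peaks the pooled share was lower in members, with 3498 of 8870 CpG-rich in the latter (39.4%; odds ratio 0.715, 0.597 to 0.854), although it was higher within each class. Copies in the mitochondrial genome did not enter the copy count. By the measure given below, 6 of the 166 single-copy members and 4 of the 97 CpG-rich ones had likeness to that genome.

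The summit of CpG-rich single-copy members was a median of 221 bp from the closest TSS, and 46 of 97 (47.4%) lay within 200 bp of it. In the same class the median was 111 bp in PHF13-only and 239 bp in EZH2-only peaks. Within 1 kb of a TSS lay 86 of these 97 members, against 1649 of 1723 PHF13-only peaks (odds ratio 0.351, exact interval 0.177 to 0.761) and 2873 of 3269 EZH2-only peaks (1.08, 0.567 to 2.26). Of all single-copy members 123 (74.1%) lay within 1 kb of a TSS, against 56.8% of single-copy PHF13-only (odds ratio 2.17, 1.52 to 3.17) and 63.9% of single-copy EZH2-only peaks (1.62, 1.13 to 2.35). Among multi-copy members the number was 179 (40.0%). The median distance was 432 bp in single-copy and 1446 bp in multi-copy members. Single-copy members had a protein-coding gene as the closest start in 99 cases (59.6%), against 63.7% of single-copy PHF13-only (odds ratio 0.844, 0.609 to 1.17) and 69.0% of single-copy EZH2-only peaks (0.664, 0.480 to 0.923). Among CpG-rich single-copy peaks such a gene was closest at 69 of 97 members (71.1%). It was closest at 1464 of 1723 PHF13-only (odds ratio 0.436, 0.271 to 0.717) and 2696 of 3269 EZH2-only peaks of that class (0.524, 0.330 to 0.852). Among the other single-copy peaks the ratios were 0.705 (0.421 to 1.17) and 0.566 (0.338 to 0.939). Multi-copy members had one in 143 cases (31.9%), against 41.0% of multi-copy PHF13-only (0.675, 0.534 to 0.851) and 35.1% of multi-copy EZH2-only peaks (0.866, 0.688 to 1.09). As to the annotation at the summit, 269 members lay in introns, 190 between genes, 90 in exons of non-coding transcripts, 34 in coding exons and 31 in untranslated exons. Pooled odds ratios against PHF13-only peaks were 0.74 (0.624 to 0.877) for introns and 1.67 (1.39 to 2.01) between genes. For untranslated exons the ratio was 0.437 (0.292 to 0.634). Against EZH2-only peaks these were 0.787, 1.58 and 0.443. Within single-copy peaks, the intervals of these ratios included 1 against both lists. For non-coding exons the single-copy ratios were 1.72 (1.09 to 2.63) and 2.05 (1.3 to 3.13) in that order.

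**Figure D2:**
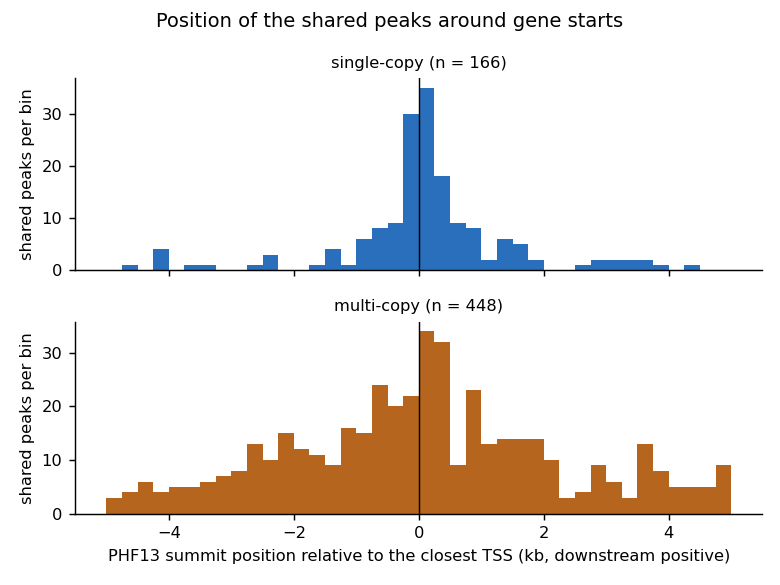
Number of shared peaks (y axis) by the position of the PHF13 summit relative to the closest TSS in kb (x axis, downstream positive), for single-copy and multi-copy members. Of the single-copy members 59 lay within 200 bp of a TSS, of the multi-copy members 47.

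PHF13 and EZH2 peaks differed in width and summit at CpG-rich single-copy members. The median EZH2 peak was 744 bp wide there and the median PHF13 peak 203 bp. These widths were near those of unshared CpG-rich single-copy peaks in each list, 731 bp for EZH2-only and 200 bp for PHF13-only. EZH2 peaks over 1 kb stood at 42 of the 97 (43.3%), at 12 of the other 69 single-copy members (17.4%) and at 17 of the 448 multi-copy members (3.79%). The summits of both proteins were a median of 166 bp apart at CpG-rich single-copy members and 29.5 bp apart at multi-copy members. Over all members the median was 42 bp (exact binomial interval 35 to 48). The EZH2 summit lay inside the PHF13 peak at 43 of 97 CpG-rich single-copy members (44.3%) and at 393 of 448 multi-copy members (87.7%).

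**Figure D3:**
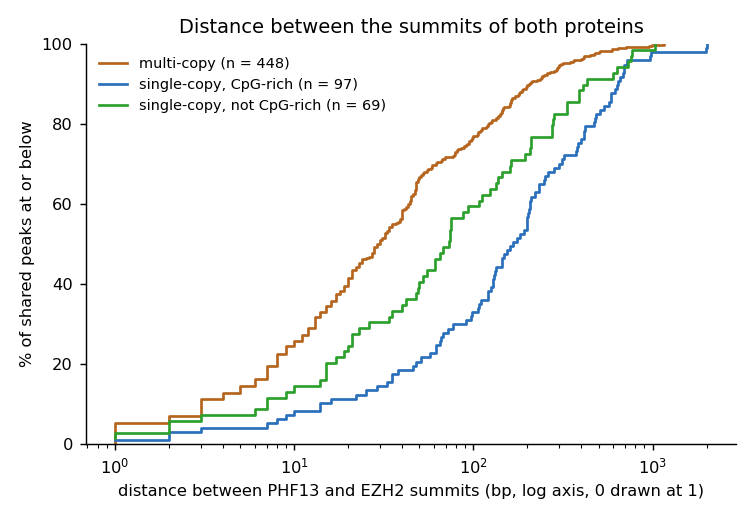
Cumulative share of shared peaks (%, y axis) by the distance between the PHF13 and EZH2 summits in bp (log x axis, distances of 0 drawn at 1), for multi-copy members, CpG-rich single-copy members and other single-copy members. Summits lay within 100 bp of each other at 345 multi-copy members (77.0%) and at 32 CpG-rich single-copy members (33.0%).

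The pair of fold enrichments was close at most members. Fold enrichment is the summit pileup over the local background, and both lists used the same input as control. The median fold was 3.67 for PHF13 and 3.71 for EZH2, and the 2 values were within 1.5 times of each other at 548 members (89.3%). The folds of each list spanned a narrow range, with quartiles of 3.04 and 4.82 for PHF13 and 2.98 and 4.97 for EZH2. The share within 1.5 times among peaks paired at random was not computed, so no link is read from the 89.3%. At CpG-rich single-copy members the share was 83.5%. Across the 448 multi-copy members the values ran together with a Spearman rho of 0.816, and across the 97 CpG-rich single-copy members with 0.302; these are descriptions over peaks that share libraries, and peaks are not replicates. PHF13 exceeded EZH2 by 1.5 times or more at 30 members, among them RNU2-64P (13.4 against 4.52), PPEF2 (10.3 against 5.54) and the collagen gene COL23A1 (8.46 against 4.38). EZH2 exceeded PHF13 to that extent at 36 members, among them CYP4F11 (13.2 against 5.36) and RASL10A (5.45 against 2.58). These genes, apart from PPEF2, were picked after their values were seen. The members at COL23A1 and CYP4F11 were multi-copy in both lists, and those at PPEF2 and RASL10A single-copy in both.

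**Figure D4:**
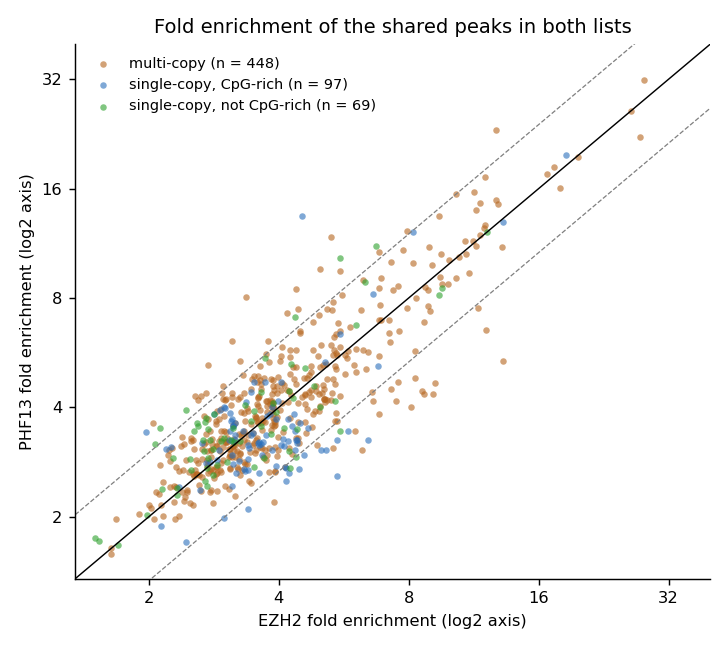
PHF13 fold enrichment (y axis) against EZH2 fold enrichment (x axis), both on log2 axes, for each shared peak, coloured by sequence class. The solid line marks equal values and the dashed lines a difference of 1.5 times, within which 548 of 614 members lay.

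The local background, to which the input contributes, was higher at members than at PHF13-only peaks. The PHF13 background exceeded 2 times its floor, the genome-wide mean, at 237 members (38.6%) and at 457 of 6272 PHF13-only peaks (7.29%). The median PHF13 summit held 35 fragments over a background of 7.17 in members, and 21 over 5.34 in PHF13-only peaks. In multi-copy members the medians were 38.5 over 7.70, and in single-copy members 22 over 5.81. A −log10 q of 5 or more in the PHF13 list was reached by 336 multi-copy members (75.0%) and by 21 of the 97 CpG-rich single-copy members (21.6%). The median PHF13 summit in the latter held 21 fragments, near the 22 of PHF13-only peaks of the same class. In the EZH2 list 76 of those 97 (78.4%) reached it. The part of the input in the overlap was not tested.

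The single-copy members closest to protein-coding genes were taken by their PHF13 −log10 q, and those with narrow peaks of both proteins are given first. UNC45B, a myosin chaperone of muscle, had an intronic peak (chr17:33478095-33478302) with fold 12.1 for PHF13 and 8.19 for EZH2. At PPEF2, a protein phosphatase gene of photoreceptors, the values were 10.3 and 5.54 (chr4:76807175-76807361). MUC3A, a membrane mucin, had 7.11 and 4.37 (chr7:100550743-100551063). At these 3 genes both peaks were between 187 and 321 bp wide, and the summits lay 10, 65 and 55 bp apart. Their PHF13 summits held 72, 53 and 52 fragments, against a median of 22 in single-copy members. Whether these sequences have further copies that the assembly lacks was not tested. MMP8, the neutrophil collagenase, had an intergenic peak 4164 bp from its start with 4.57 and 4.83 (chr11:102601848-102602032).

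PAPLN encodes papilin, an extracellular matrix protein, and had a narrow PHF13 peak at the edge of a wide EZH2 peak. The PHF13 peak (chr14:73705338-73705513, 904 bp from the TSS) was 176 bp wide with a fold of 5.27 and a −log10 q of 9.87. The EZH2 peak was 1428 bp wide with a fold of 4.27 and a −log10 q of 19.3, and its summit lay 407 bp away. The peaks had 57 bp in common, 32.4% of the PHF13 peak, and the PHF13 summit lay outside the EZH2 peak. At ERC2, a scaffold of the presynaptic active zone, the PHF13 peak of 189 bp (chr3:56502622-56502810, fold 4.40) lay wholly inside an EZH2 peak of 1908 bp (fold 3.45), with summits 642 bp apart.

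Of the other genes taken by −log10 q, 4 had the summit within 200 bp of the start in CpG-rich sequence and EZH2 peaks of 158 to 471 bp. They were NIPAL2 (PHF13 fold 4.70, EZH2 3.72), KLHL42, an adaptor of Cullin 3 ubiquitin ligases (4.13 and 3.35), HECA (4.69 and 3.51), and KCNS2, a modulatory potassium channel subunit (4.02 and 2.99). TBC1D3 (3.29 and 2.99), C19orf47 (2.30 and 2.32), NPIPA1 (3.63 and 2.58) and PDE4DIP (3.18 and 2.06) completed the genes taken in this way, and none of these 4 was CpG-rich. C19orf47 had the widest PHF13 peak of them, 1845 bp.

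**Figure D5:**
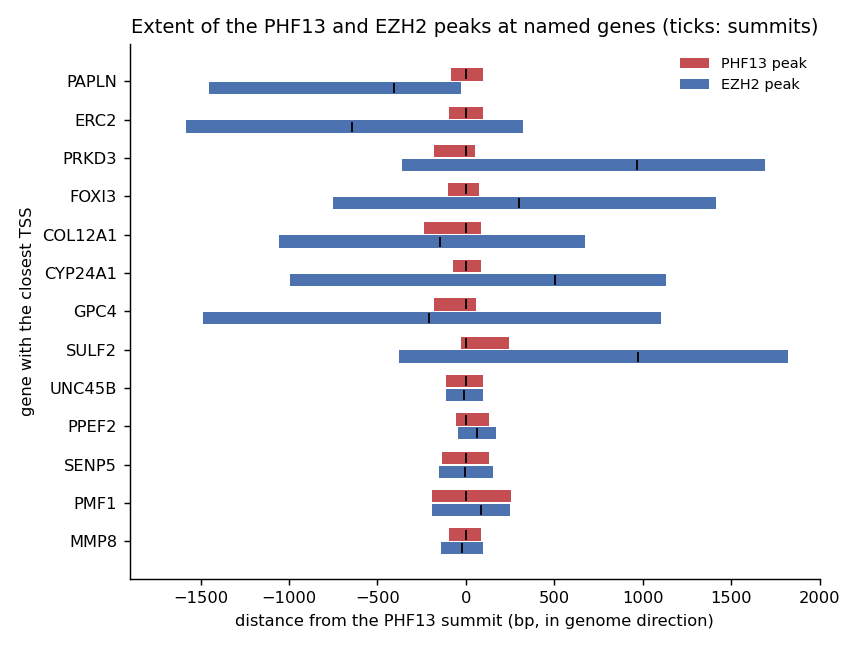
Extent of the PHF13 peak and of the overlapping EZH2 peak at 13 genes, in bp from the PHF13 summit along the genome; ticks mark summits. At PAPLN, ERC2, PRKD3, FOXI3, COL12A1, CYP24A1, GPC4 and SULF2 a narrow PHF13 peak met an EZH2 peak of over 1 kb, while at UNC45B, PPEF2, SENP5, PMF1 and MMP8 both peaks covered nearly the same bases.

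Further CpG-rich single-copy members with a wide EZH2 peak, picked after their values were seen, included genes of signalling, transcription and matrix. At PRKD3, a protein kinase D, a PHF13 peak of fold 3.25 met an EZH2 peak 2048 bp wide of fold 4.39. FOXI3, a forkhead factor, had 3.24 and an EZH2 peak of 2163 bp with 4.21. CYP24A1, the vitamin D 24-hydroxylase, had 3.72 and an EZH2 peak of 2126 bp with 3.93. COL12A1 (3.84 and 3.81) and COL27A1 (4.01 and 3.87) encode collagens, and their EZH2 peaks were 1728 and 1464 bp wide. SETBP1 had 3.83 and 4.35 with an EZH2 peak of 1312 bp. The PHF13 −log10 q of these 6 peaks lay between 3.81 and 4.77, and that of EZH2 between 10.6 and 58.1.

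Of the other members closest to protein-coding genes, those of highest PHF13 −log10 q are given here, so their high values follow from the choice. Other multi-copy members had low values, such as those at TAF11-like genes with PHF13 folds of 2.03 to 3.44. SENP5, a SUMO protease, had a fold of 22.2 for PHF13 and 27.5 for EZH2 (chr3:196625574-196625839) with summits 6 bp apart. PMF1, a kinetochore protein, had 16.1 and 17.9 (chr1:156186218-156186664). Its sequence was multi-copy at the PHF13 summit but single-copy at the EZH2 summit, 87 bp away. CDC27, a subunit of the anaphase-promoting complex, had 5 members in chr17:45212879-45249428, of which 4 were multi-copy with PHF13 folds of 5.74 to 18.4. The strongest, in a coding exon 261 bp from a start, reached 18.4 and 17.3. The remaining member of this gene was single-copy in both lists and had 4.02 and 4.98. MTRNR2L6, a humanin-like gene of mitochondrial origin, had 15.5 and 10.3. The highest PHF13 fold among all members was 31.8 at ENSG00000289901, where EZH2 reached 28.1.

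Sequence from the mitochondrial genome was present in the members beyond its share in unshared peaks. At least 10% of the summit 24-mers matched the mitochondrial genome at 15 of 614 members (2.44%, Wilson interval 1.49 to 3.99), at 2 of 6272 PHF13-only peaks (0.0319%), at none of 8870 EZH2-only peaks, which allows at most 0.0338% by 3 counts, and at 4 of 636 shared distal peaks (0.629%). The odds ratio against PHF13-only peaks was 78.4 (exact interval 18.2 to 708) and against shared distal peaks 3.95 (1.25 to 16.5). Of the 15 members, 6 were single-copy and 9 multi-copy by the count that left out the mitochondrial genome. A grouping by closest gene gave a different set from these 15. In that grouping 13 members, 7 of them single-copy, lay at nuclear copies of mitochondrial genes (MTND, MTCO, MTCYB and MTATP pseudogenes) on chromosomes 1, 4, 5, 18 and X. Their PHF13 folds ran from 1.88 to 19.6 with a median of 8.22, and their EZH2 folds from 2.13 to 19.7 with a median of 6.02. The highest was MTND4LP1 (chrX:125606435-125607131, 19.6 and 19.7). At MTCO2P12 (chr1:564539-570230) both peaks spanned over 5 kb, and the PHF13 background was 146 fragments under a pileup of 276. Mitochondrial reads from the same cells cannot be told apart from reads of these nuclear copies where the sequence is the same.

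Other members lay in tandem arrays and duplicated families, a grouping made after the values were seen. USP17-like deubiquitinase genes and pseudogenes were the closest genes of 13 members on chromosome 4, with 21 copies of the median 24-mer and folds of 3.57 to 10.4 for PHF13 and 3.60 to 10.5 for EZH2. TAF11-like genes on chromosome 5 had 19 members with PHF13 folds of 2.03 to 3.44. The DUX4-like double-homeobox repeats had 15 (2.48 to 14.6), the FAM230 genes of chromosome 22 had 12 (4.60 to 26.1), and 5S rRNA genes and pseudogenes had 8 (2.12 to 5.01). Only 1 of the members in these 5 groups, at FAM230F, was single-copy. Of all members, 192 (31.3%) had a pseudogene as the closest start, against 11.2% of PHF13-only and 12.2% of EZH2-only peaks.

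Members linked by at least 25% of their summit 24-mers formed 570 sequence families, of which 540 held 1 member. The link compares only the 100 bp at the summits of members. It therefore misses copies of a repeat whose summits are shifted, and copies that are not members. The largest families had 4 members, and 4 families had that size. They lay at FAM230F and FAM230B, at USP17L11, USP17L15, USP17L18 and USP17L20, at BRF1, and at TRIM51CP and ENSG00000276868. Their PHF13 folds ran from 4.60 to 8.85, 3.97 to 6.40, 3.12 to 4.37 and 5.65 to 11.1.

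Many members lay close to each other along the chromosomes. Within 20 kb of each other, they formed 393 loci, and 171 members lay in 27 loci of 4 or more. The largest locus had 13 members over 45654 bp (chr16:33918513-33964166) by rRNA and other pseudogenes, with a median PHF13 fold of 3.05 and a median EZH2 fold of 3.15. Single-copy members stood alone within 20 kb in 131 cases (78.9%) and multi-copy members in 176 (39.3%). Chromosome 1 held the most members, 71, whereas chromosome 4 had the highest share of its PHF13 peaks near a TSS shared with EZH2, 48 of 142 (33.8%). A position within 1 Mb of a chromosome end was found for 80 multi-copy (17.9%) and 7 single-copy members (4.22%).

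AP-1 sites, bound by FOS and JUN factors, were less frequent at shared than at PHF13-only summits. The letters TGACTCA on either strand stood in the 200 bp at the summit of 19 members (3.09%, Wilson interval 1.99 to 4.78), against 2.69% of windows of the same length 1000 bp to either side and 2.62% of such windows at all protein-coding gene starts. They stood at 721 PHF13-only summits (11.5%; odds ratio 0.246, exact interval 0.146 to 0.391) and at 166 EZH2-only summits (1.87%; 1.67, 0.976 to 2.72). Among single-copy peaks the counts were 5 of 166 members (3.01%) and 665 of 4920 PHF13-only peaks (13.5%; odds ratio 0.199, 0.0634 to 0.476). Among CpG-rich single-copy peaks the difference was not detectable, with 3 of 97 against 63 of 1723 (odds ratio 0.841, 0.166 to 2.65), and among the others it was 2 of 69 against 602 of 3197 (0.129, 0.0152 to 0.486). PAPLN, with 2 sites as printed above, and ERC2 were among the 5 single-copy members with a site. Both PAPLN sites lay in the PHF13 peak but outside the EZH2 peak, and so outside the bases that the peaks had in common.

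The SP1 box GGGCGG, a common element of CpG-rich promoters, stood at 110 members (17.9%). It was at 62 of 166 single-copy (37.3%) and 48 of 448 multi-copy members (10.7%), against 22.7% of single-copy PHF13-only and 30.7% of single-copy EZH2-only peaks. At all protein-coding gene starts the share was 46.6%. Within CpG-rich single-copy peaks the box was at 55 of 97 members and at 914 of 1723 PHF13-only peaks (odds ratio 1.16, 0.752 to 1.80). The E-box CACGTG stood at 13 members, against 252 of 6272 PHF13-only peaks (odds ratio 0.517, 0.270 to 0.907) and 259 of 8870 EZH2-only peaks (0.719, 0.375 to 1.26). The cyclic AMP response element TGACGTCA, the CTCF core and the CENP-B box stood at 1 member each, the telomere repeat at 2 and the GGAAT repeat at 3. In this order they stood at 21, 1, 2, 4 and 7 PHF13-only and at 10, 2, 4, 1 and 3 EZH2-only peaks. The ETS site CCGGAAGT and the NRF1 site were at none, which says only that these letters were not in the windows. These 2 sites stood at 56 and 14 PHF13-only and at 14 and 1 EZH2-only peaks.

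For genes, 262 of 20136 protein-coding genes (1.3%) had a member within 5 kb of a TSS, and 115 (0.571%) had one that was single-copy in both lists. Far more genes, 1051, had peaks of both proteins at 5 kb or less from a start and outside gap margins, and 789 of these (75.1%) had no overlapping pair. The lists below were chosen with earlier results of these data known and are described by counts only. No HOX gene of 39, none of 10 EMT transcription factors, none of 44 SOX, PAX and T-box factors and none of 12 PRC2 subunits had a member, although 14, 4, 22 and 2 of them had an EZH2 peak. Over all protein-coding genes, 23.3% had an EZH2 peak and 20.7% a PHF13 peak within 5 kb of a start. Of 73 GATA, FOX and NKX factors 38 had an EZH2 peak and 3 a member: FOXI3, FOXK2 and NKX2-3. The member at FOXK2 was multi-copy in both lists. Of 44 collagens 26 had an EZH2 peak and 3 a member: COL12A1, COL23A1 and COL27A1. The one at COL23A1 was multi-copy in both lists. The clustered protocadherins had 2 of 53, the zinc finger genes 2 of 508, olfactory receptors 1 of 415 and HLA genes 1 of 19. None of 81 core histone genes, 82 ribosomal protein genes and 29 GOLGA6 and GOLGA8 genes had one. The duplicated families had 8 of 14 TBC1D3 genes, 13 of 26 USP17-like genes, 1 of 4 humanin-like genes and 4 of 18 NBPF and NOTCH2NL genes. Neighbouring genes of a family share single peaks, so that 5 members accounted for TBC1D3.

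The study lists poised genes activated by TGFβ, of which 89 of 90 matched the annotation. EZH2 peaks lay near 78 of them (87.6%, against 23.3% of all protein-coding genes). PHF13 peaks lay near 17 (19.1%, close to the 20.7% of all genes), and each of these genes also had an EZH2 peak. A member lay near 5 (5.62%, against 1.3%): GPC4, PAPLN, PCDHB8, RPS6KA2 and SULF2. Counted among genes with an EZH2 peak only, these were 5 of 78 listed genes, against 262 of 4697 protein-coding genes, which are similar shares. The list comes from histone marks and expression in the same cell line, and the sources used here do not say whether these peak lists entered its choice. Among 12 genes that the study discusses, 6 had both peaks within 5 kb and 2, PAPLN and PCDHB8, had a member. GPC4, a glypican of the cell surface, had a PHF13 fold of 3.16 and an EZH2 peak 2593 bp wide with 3.39. SULF2, a heparan sulfate endosulfatase, had 2.76 and an EZH2 peak of 2197 bp with 3.95, with summits 974 bp apart. RPS6KA2, an S6 kinase, had 2.72 and 2.73. The PHF13 −log10 q of these 3 peaks was 2.65, 1.90 and 1.95, near the lower limit of the list. All 3 lay below a −log10 q of 3, the limit that the study's methods state for PHF13. The members at PAPLN (9.87) and PCDHB8 (3.24) lay above it. PCDHB8, a clustered protocadherin, shared 1 multi-copy member with PCDHB16 (chr5:140557496-140557654), with folds of 3.0 and 3.25.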

How the data were processed

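ChIP-seq peaks of 2 antibodies in PANC-1 were analysed as deposited. According to the methods and the submitters' processing notes, the authors trimmed reads (Trim Galore 0.4.1), aligned them to hg19 (Bowtie2 2.4.1), removed duplicates (Picard) and called peaks over the input with MACS2 2.2.7.1; deepTools 3.5.0 is also listed. No limit on mapping quality is given in the sources used here. The deposited lists give a score, the fold enrichment as a ratio, p and q on the −log10 scale and the summit offset. The lowest −log10 q was 1.30 (PHF13) and 1.31 (EZH2), looser than the limit stated for PHF13, and EZH2 peaks, described as broad, were deposited in the narrow-peak format.

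Summit pileup and background were solved from the deposited fold and p, with 1 solution for 100% of peaks. The genome-wide floor was 4.23 (PHF13) and 4.42 (EZH2) fragments. The depth of each library is unknown, since the lists hold no read totals. Sequence and genes came from GRCh37 and GENCODE release 44 lifted to it, and TSSs were all transcript 5′ ends. Copy number used 24-mers in 100 bp, motifs 200 bp and CpG 500 bp at the summit. Groups were compared with Wilson, exact conditional odds-ratio and exact binomial median intervals at 95%, with no p-value, since each antibody had 1 library. The members, lists and motifs were chosen with earlier results of these data known. Named genes were the 15 members of highest PHF13 −log10 q that were single-copy in both lists and closest to a protein-coding gene, the 6 highest others, genes of the study's lists, the limits of the rule and the largest families; families of 4 were tied, and all 4 are named. One gene named by this rule is not reported here. All lists of gene groups were set by symbol. Steps were tested on simulated data (Python 3.11.15, numpy 2.4.6, pandas 2.3.3, scipy 1.17.1, numba 0.67.0).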

Additional observations from a re-analysis of the deposited data

How the results depend on the processing

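The single-copy share of members (27.0%) fell to 19.8% and 14.0% when a −log10 q of at least 3 or 5 was required in both lists. It was 40.7% within 1000 bp of a TSS, 40.2% with protein-coding TSSs only, 41.5% when gaps of 50 kb or more counted and 38.9% with 36-mers. These alternatives were computed for the members and not for unshared peaks. The mitochondrial-like share (2.44%) was 4.36% at a −log10 q of 5 and 0.350% with protein-coding TSSs only. The AP-1 share (3.09%) was 1.95% in 100 bp. The CpG-rich share (31.8%) was 24.1% at a −log10 q of 5, 48.3% within 1000 bp, 40.6% with protein-coding TSSs only and 38.3% with gaps of 50 kb or more. The median summit distance (42 bp) was 32 and 20 bp at a −log10 q of 3 and 5, 50.5 bp within 1000 bp and 51.5 bp with protein-coding TSSs only. The 262 genes with a member became 128 at a −log10 q of 5, 144 within 1000 bp and 115 with members single-copy in both lists only. The cause of these shifts was not tested. The other alternatives stayed within the interval of the value, or within 1.5 times of the count. The AP-1 shares within single-copy and CpG classes and the 12-mer measure of likeness to the mitochondrial genome were added after the data were seen. No paired analysis was possible because each antibody had 1 library and no test over samples was made; for the same reason no replicate could be left out. The depth of the libraries is unknown, and the median PHF13 summit held 35 fragments in members.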

Other observations

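A lncRNA start was closest at 125 members (20.4%), a share close to those of PHF13-only (21.5%) and EZH2-only peaks near a TSS (20.2%). Of these members 25 were single-copy, and their median PHF13 fold was 4.04, against 3.62 for the 242 members closest to a protein-coding gene and 3.18 for the 93 closest to a processed pseudogene. A microRNA start was closest at 22 members (3.58%), against 2.63% of PHF13-only and 1.48% of EZH2-only peaks, differences that were not tested. The lncRNA gene CTD-2328D6.1 had one of the strongest single-copy members (chrX:108297340-108297853), with a PHF13 fold of 19.8 and an EZH2 fold of 18.5 and summits 2 bp apart. The repeated cancer-testis genes of chromosome X appeared as arrays: the loci at GAGE12I, GAGE2C and GAGE2B and at CT45A4, CT45A10 and CT45A9 held 7 members each, with median PHF13 folds of 3.78 and 4.16. The REXO1-like genes had loci of 7 and 6 members, all multi-copy. These groups were picked after their values were seen.

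When the likeness to the mitochondrial genome was measured by 12-mers in 300 bp, 18 of 614 members (2.93%) reached 10%, against 4 of 6272 PHF13-only and 1 of 8870 EZH2-only peaks near a TSS.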
